A study of Mus musculus with 12 samples.

Results

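Gpr37l1, Ntsr2, Ednrb, Adora1, Adra1a, S1pr1, F2r, Fgfr3, P2ry1 and Gpr37 encode surface receptors through which astrocytes sense transmitters, hormones and growth factors. These 10 genes were listed by name, with earlier results of these data known, out of 41388 gene identifiers in the count files. Each symbol matched 1 identifier, and all 10 genes passed the filter on low counts that left 13364 genes to test, although P2ry1 reached more than 22 counts in 1 library alone.

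RNA was sequenced from 12 libraries in 4 groups of 3, from cortex and hippocampus of C57/Bl6 mice on postnatal day 21. All animals carried an eGFP tag on the ribosomal protein Rpl10a, driven by the promoter of Aldh1l1, an enzyme gene used as an astrocyte marker. Translating ribosome affinity purification (TRAP) recovers tagged ribosomes and their messages with an antibody to the tag. PAP TRAP is the precipitate from a synaptoneurosome layer of a sucrose gradient, which holds pinched-off synapses with the fine astrocyte processes around them, and cortex TRAP is the precipitate from the tissue homogenate. Synaptoneurosome input and cortex input are the material before each precipitation. Per the labels, every sample was handled in cycloheximide (1 ug/mL), which holds ribosomes on their messages, and in TTX (1 mM), which blocks sodium channels. The labels call all samples astrocytes, inputs included, and give all of them the extraction text of the synaptoneurosome layer, so the cortex samples are known by their titles and source names. They do not say whether the 3 libraries of a group came from separate animals. The p-values below set each difference against a spread between libraries, estimated over all 12, which may be technical.

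Astrocytes contact synapses through thin processes, and receptors in their membrane report what neurons and vessels release. Most of the receptors described here couple to G proteins: Gq-coupled receptors release calcium from internal stores through phospholipase C and inositol trisphosphate, and Gi-coupled receptors lower cyclic AMP. Fibroblast growth factor (FGF) receptors are tyrosine kinases that act mainly through the Ras and ERK pathway, which in turn switches on Sprouty, Dusp6 and Ets-family genes.

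The promoters of the receptors that moved together are shown because their messages share a pattern across the libraries while their start regions differ, with that of Adora1 set beside them as a receptor that followed another pattern. RefSeq promoter windows (GRCm38.p6), from 250 bases before to 50 after the start of transcription, were at hand for 8 of the 10 genes, and none was matched for S1pr1 and Adra1a. Each sequence runs 5′ to 3′ on the strand of the gene, and capitals mark CG dinucleotides.
Gpr37l1 (chr1:135167632-135167931, minus strand): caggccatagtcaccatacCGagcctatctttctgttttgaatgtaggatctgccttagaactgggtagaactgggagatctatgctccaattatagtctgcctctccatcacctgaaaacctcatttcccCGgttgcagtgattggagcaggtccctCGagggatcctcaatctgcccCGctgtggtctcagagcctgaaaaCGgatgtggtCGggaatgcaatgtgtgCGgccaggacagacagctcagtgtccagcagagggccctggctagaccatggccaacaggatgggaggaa
Ntsr2 (chr12:16653220-16653519, plus strand): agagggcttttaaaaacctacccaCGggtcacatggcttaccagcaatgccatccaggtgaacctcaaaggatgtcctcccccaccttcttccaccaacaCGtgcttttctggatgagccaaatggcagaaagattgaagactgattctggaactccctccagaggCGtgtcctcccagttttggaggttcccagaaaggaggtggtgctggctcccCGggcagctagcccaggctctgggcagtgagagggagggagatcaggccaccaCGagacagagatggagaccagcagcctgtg
Ednrb (chr14:103843652-103843951, minus strand): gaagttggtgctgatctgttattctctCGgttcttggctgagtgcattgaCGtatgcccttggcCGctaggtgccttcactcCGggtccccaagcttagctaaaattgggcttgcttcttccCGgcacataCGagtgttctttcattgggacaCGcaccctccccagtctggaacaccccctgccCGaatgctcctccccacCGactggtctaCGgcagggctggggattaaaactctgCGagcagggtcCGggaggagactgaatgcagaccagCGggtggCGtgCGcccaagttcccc
Fgfr3 (chr5:33721474-33721773, plus strand): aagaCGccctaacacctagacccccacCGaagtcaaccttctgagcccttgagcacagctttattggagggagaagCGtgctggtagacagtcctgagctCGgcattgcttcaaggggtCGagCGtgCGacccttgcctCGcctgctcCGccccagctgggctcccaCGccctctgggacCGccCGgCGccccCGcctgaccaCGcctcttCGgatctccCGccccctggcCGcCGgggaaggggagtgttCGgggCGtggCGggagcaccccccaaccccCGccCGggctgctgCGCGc
Adora1 (chr1:134235408-134235707, minus strand): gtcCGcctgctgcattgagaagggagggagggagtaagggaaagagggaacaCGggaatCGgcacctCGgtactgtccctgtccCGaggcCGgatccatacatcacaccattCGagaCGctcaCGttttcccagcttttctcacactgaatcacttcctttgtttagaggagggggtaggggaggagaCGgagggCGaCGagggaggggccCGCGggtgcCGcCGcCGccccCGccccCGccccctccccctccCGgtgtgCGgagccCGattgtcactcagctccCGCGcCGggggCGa

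The window of Ntsr2 held 5 CG dinucleotides, that of Gpr37l1 held 7 and that of Ednrb 15. The windows printed for Fgfr3 and Adora1 held 26 each. Both genes had another window, not printed, at chr5:33722056-33722355 for Fgfr3 and chr1:134234807-134235106 for Adora1, with 30 and 24. The median over 32851 mouse promoter windows was 7, so that Ntsr2 and Gpr37l1 were at or under it and the other printed windows above it. Windows of P2ry1, Gpr37 and F2r held 25, 21 and 28. Of 4 short motifs searched on both strands, the GC box GGGCGG, held by 35.7% of all windows, was found in windows of Fgfr3, Adora1, F2r, P2ry1 and Gpr37, and not in those of Gpr37l1, Ntsr2 and Ednrb. For Adora1 this rests on the window chosen, since the printed one held 3 GC boxes and the other 0. For Fgfr3 the printed window held 4 and the other 2. The NFI motif TTGGCA, named for a family of transcription factors active in astrocytes and held by 14.1% of all windows, was not found in the windows of these 8 genes. The same was true of a SOX motif, ACAATG, which 12.6% of all windows held. The windows of these genes also lacked the letters TATAAA, the core promoter element found in 13.6% of all windows. A match is a run of letters and not a measured binding site.

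Gene counts per library ranged from 4918113 to 17553985. Mitochondrial transcripts took 35.6% to 47.6% of them in PAP TRAP, 1.03% to 1.28% in cortex TRAP, 83.8% to 91.9% in synaptoneurosome input and 44.8% to 50.2% in cortex input. Synaptoneurosome input was left with 1423296 to 2476076 counts of nuclear genes and was therefore the shallowest group, against 4864787 to 7777763 in the other libraries. The 11 astrocyte markers summed to 4.92% to 9.63% of nuclear counts in PAP TRAP, 7% to 10.2% in cortex TRAP, 4.06% to 4.93% in synaptoneurosome input and 0.812% to 0.895% in cortex input, and none was at 0 in any library. Markers of other cells differed between the precipitates. The 10 neuron markers summed to 0.385% to 0.565% in PAP TRAP and 0.189% to 0.297% in cortex TRAP, the 10 markers of myelinating oligodendrocytes to 0.788% to 1.05% and 0.0626% to 0.0922%, and the 9 microglia markers to 0.0247% to 0.0368% and 0.0022% to 0.00361%. Before precipitation, neuron markers summed to 1.03% to 1.43% in synaptoneurosome input and 1.73% to 1.91% in cortex input. Markers of myelinating oligodendrocytes summed to 0.547% to 0.745% and 0.412% to 0.448% there, so PAP TRAP lay above both inputs for these. Microglia markers summed to 0.0592% to 0.128% in synaptoneurosome input and 0.0127% to 0.0162% in cortex input. Mural and fibroblast markers summed to 0.0106% to 0.0219% in PAP TRAP and 0.00603% to 0.0109% in cortex TRAP. Oligodendrocyte precursor markers were about level, at 0.019% to 0.0258% and 0.0193% to 0.029%. Ependymal and choroid plexus markers went the other way, at 0.00169% to 0.00779% in PAP TRAP and 0.03% to 0.0914% in cortex TRAP. Endothelial markers stayed at or under 0.00363% in every library, with 6 to 8 of 10 at 0 in the cortex TRAP libraries.

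S1pr1, the receptor for the lipid sphingosine 1-phosphate, had the highest level per kilobase of exon in both precipitates. It averaged 48.2 ± 17.7 normalized CPM per kilobase in PAP TRAP and 164 ± 22.5 in cortex TRAP (SD, n = 3). Normalized CPM are gene counts scaled to the library total multiplied by the TMM factor of that library. These factors ran from 0.1908 in a synaptoneurosome input library to 2.458 in a cortex TRAP library. In both inputs the highest level was that of Adora1, the Gi-coupled A1 receptor for adenosine, with 23.4 ± 2.98 CPM per kilobase in synaptoneurosome input and 11.3 ± 0.558 in cortex input (SD, n = 3). In PAP TRAP the order ran S1pr1, Ntsr2, Adora1, Gpr37l1, Ednrb, Fgfr3, Adra1a, F2r, Gpr37 and P2ry1, and the ranges of neighbours overlapped among the leading 5 and between F2r and Gpr37. In cortex TRAP it ran S1pr1, Gpr37l1, Ntsr2, Ednrb, Fgfr3, Adora1, F2r, Adra1a, Gpr37 and P2ry1, with gaps between Ntsr2 and Ednrb, Ednrb and Fgfr3, and Adora1 and F2r. In synaptoneurosome input S1pr1 was next to Adora1, with overlapping ranges, then came Ntsr2, Ednrb and Gpr37l1 at 10.01 to 10.9 CPM per kilobase, whose ranges overlapped, and then Adra1a, Fgfr3, Gpr37, F2r and P2ry1. In cortex input the range of Adora1 lay above that of every other receptor, and from S1pr1 down all neighbours overlapped. P2ry1 was the lowest in all 4 groups by its mean.

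**Figure D1:**
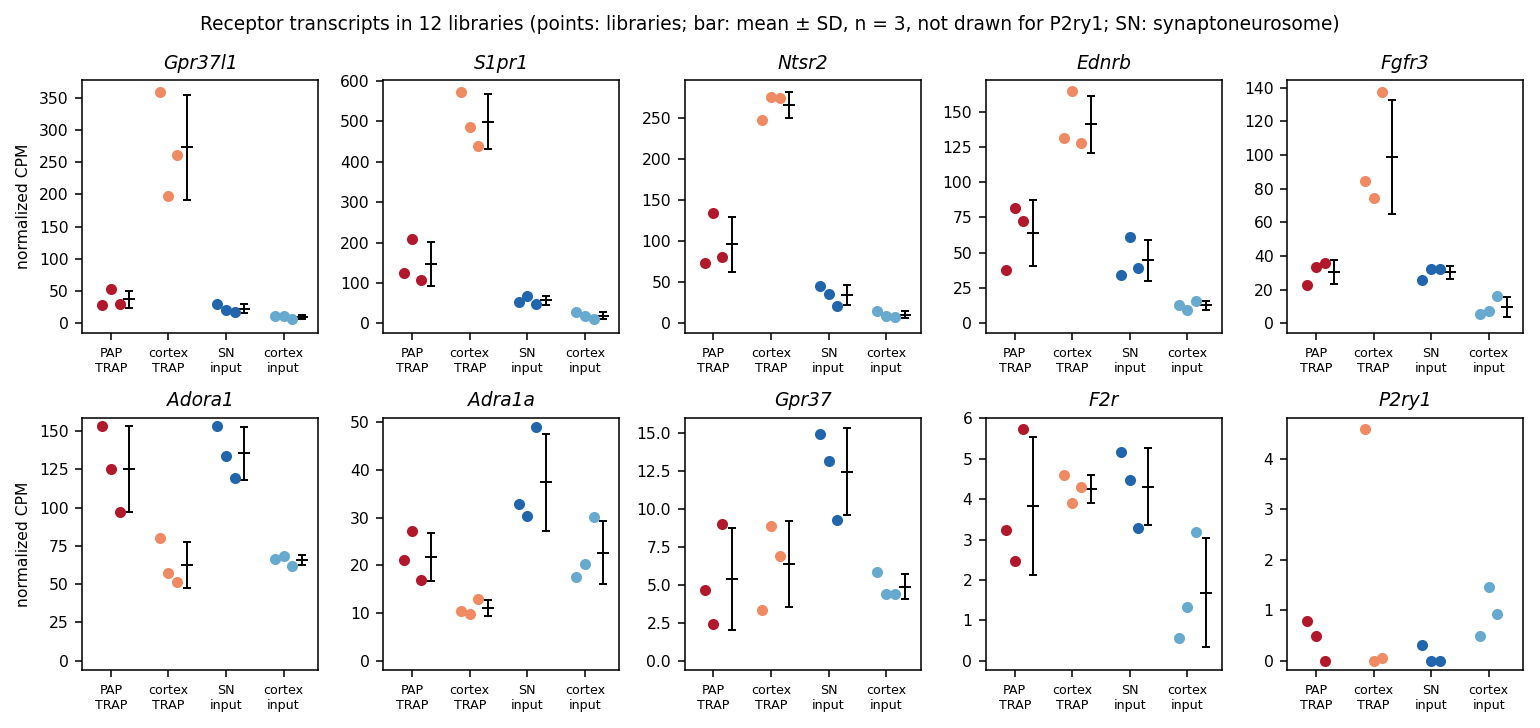
Level of each of the 10 receptor messages (normalized CPM, linear axes from 0) in the 12 libraries, in the order PAP TRAP, cortex TRAP, synaptoneurosome (SN) input and cortex input. Points are libraries and bars are mean ± SD (n = 3). Gpr37l1, S1pr1, Ntsr2, Ednrb and Fgfr3 peak in cortex TRAP, while Adora1 and Adra1a do not.

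Cortex TRAP against cortex input asks which receptor messages astrocyte ribosomes of the whole tissue carry. Gpr37l1, Ntsr2, S1pr1, Ednrb and Fgfr3 were 10.1-fold to 28.8-fold higher in cortex TRAP, and Adra1a was lower. That is 5 of 10 higher and 1 lower, where 15.9% of all genes tested were called higher and 19.5% lower (35.4% in all). The median log2 change of the 10 was 2.33, against 0.05 over all genes tested. In bulk samples such as these, fewer cells of a type and less RNA per cell cannot be told apart.

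Gpr37l1, a G protein-coupled receptor of glia related to the endothelin receptors, had 360, 198 and 262 normalized CPM in the cortex TRAP libraries, against 11.4, 10.6 and 6.42 in cortex input. The lowest cortex TRAP library was thus far above the highest input library. The log2 change was 4.85 ± 0.38 (SE, edgeR quasi-likelihood test, adjusted p = 1.62e-08), the largest of the 10. Ntsr2, the low-affinity neurotensin receptor, had 247, 276 and 275 CPM in cortex TRAP, against 15.01, 8.44 and 7.34 in cortex input. Its cortex TRAP libraries were the closest to each other of these 5 receptors, and its log2 change was 4.69 ± 0.38 (adjusted p = 2.17e-08). S1pr1 had 574, 486 and 439 CPM in cortex TRAP, against 27.7, 17.8 and 9.96 in cortex input, a log2 change of 4.76 ± 0.38 (adjusted p = 1.82e-08).

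Ednrb, the endothelin B receptor, and Fgfr3, an FGF receptor, rose by less. Ednrb had 131, 164 and 128 CPM in cortex TRAP, against 13.2, 9.57 and 15.8 in cortex input, and changed by 3.45 ± 0.35 (adjusted p = 3.08e-07). Fgfr3 had 84.5, 74.2 and 138 CPM in cortex TRAP, against 5.54, 7.38 and 16.5 in cortex input, and changed by 3.33 ± 0.41 (adjusted p = 2.7e-06). In each of the 5 the groups did not overlap, a trait of 7 of the 10 receptors in this comparison. How many of all genes tested share this trait was not counted, so it does not set the receptors apart. For scale, Aldh1l1, whose promoter drives the tag, changed by 3.46 ± 0.46 and Gfap, the astrocyte intermediate filament protein, by 4.49 ± 0.34, and all 11 astrocyte markers rose (median 3.84, from 2.995 to 4.71).

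Adora1 had 79.8, 57.0 and 51.6 CPM in cortex TRAP, against 66.5, 68.1 and 61.9 in cortex input. The groups overlapped, and the log2 change was -0.06 (95% interval -0.60 to 0.48, adjusted p = 0.883). Adra1a, the Gq-coupled alpha-1A receptor for noradrenaline, had 10.4, 9.87 and 13.03 CPM in cortex TRAP, against 17.6, 20.2 and 30.3 in cortex input. It fell by 1.03 ± 0.35 on the log2 scale (adjusted p = 0.0291), and the call was lost without the filter on low counts (adjusted p = 0.0665) and without cortex input replicate 2 (0.0518) or 3 (0.0937). All 10 neuron markers fell in the same comparison (median -3.12). Their part in the values of Adora1 and Adra1a was not tested.

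The remaining 3 receptors were low. F2r, the thrombin receptor PAR1, had 4.59, 3.90 and 4.30 CPM in cortex TRAP, against 0.554, 1.33 and 3.18 in cortex input. Its groups did not overlap, but the log2 change of 1.33 ± 0.76 was not called (adjusted p = 0.19). Gpr37, a relative of Gpr37l1 that oligodendrocytes also express, had 3.34, 8.87 and 6.87 CPM in cortex TRAP, against 5.82, 4.39 and 4.40 in cortex input, with overlap and a change of 0.38 (interval -0.84 to 1.61). P2ry1, the Gq-coupled receptor for ADP, had 81, 0 and 1 counts in cortex TRAP, against 9, 22 and 15 in cortex input. Its cortex TRAP signal came from replicate 1 alone, and no fold is given.

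PAP TRAP against synaptoneurosome input asks the same of the fraction. Ntsr2 and S1pr1 were higher in PAP TRAP than in its input, and no receptor was lower by edgeR or DESeq2 (1, Adra1a, at an unadjusted p under 0.05). That is 2 of 10 higher, where 3% of all genes tested were called higher and 1.53% lower (4.53% in all). These 605 calls over all genes numbered 292 to 521 with a library left out. The median of the 10 was 0.27, against 0.06 over all genes. Without mitochondrial genes in the library sizes, the share of all calls that were higher was 79.1%, against 66.3% with them, and the median gene moved up by 0.13.

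Ntsr2 had 73.8, 135 and 80.7 CPM in PAP TRAP, against 45.3, 35.8 and 21.2 in synaptoneurosome input. The groups did not overlap, and Ntsr2 was 2.84-fold higher (log2 change 1.51 ± 0.34, adjusted p = 0.0149). S1pr1 had 125, 208 and 108 CPM in PAP TRAP, against 53.5, 68.1 and 48.3 in synaptoneurosome input. Again the groups were apart, with a 2.60-fold higher level in PAP TRAP (1.38 ± 0.33, adjusted p = 0.0225). PAP TRAP replicate 2 was the highest library for both genes. Without it the change of Ntsr2 was 1.19 (adjusted p = 0.0704) and that of S1pr1 1.04 (0.104). The call of Ntsr2 was also lost without synaptoneurosome input replicate 2 (0.0538) or 3 (0.0718), and that of S1pr1 without replicate 1 (0.0861) or 3 (0.0886).

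Gpr37l1, which of the 10 had the largest change over input in the whole tissue, had 28.8, 52.6 and 30.4 CPM in PAP TRAP, against 30.4, 20.01 and 17.8 in synaptoneurosome input. These groups overlapped, and the change of 0.72 ± 0.33 was not called (adjusted p = 0.232). Ednrb had 37.9, 81.7 and 72.4 CPM in PAP TRAP, against 34.0, 61.2 and 39.0 in synaptoneurosome input, with overlap and a change of 0.52 (interval -0.16 to 1.19). Fgfr3 was at nearly the same level in each group: 22.6, 33.7 and 35.9 CPM in PAP TRAP, against 25.8, 32.6 and 32.4 in synaptoneurosome input, a change of 0.02 (interval -0.77 to 0.81).

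Adora1 was likewise level, at 153, 125 and 97.1 CPM in PAP TRAP, against 153, 134 and 119 in synaptoneurosome input (-0.11, interval -0.65 to 0.43). Adra1a had 21.1, 27.2 and 17.0 CPM in PAP TRAP, against 32.8, 30.5 and 49.0 in synaptoneurosome input. Its groups did not overlap, and the change of -0.79 ± 0.35 was not called (adjusted p = 0.218). Gpr37 had 4.65, 2.40 and 9.01 CPM in PAP TRAP, against 14.9, 13.1 and 9.27 in synaptoneurosome input, a narrow gap (-1.21 ± 0.60, adjusted p = 0.269). F2r had 3.25, 2.48 and 5.75 CPM in PAP TRAP, against 5.17, 4.48 and 3.28 in synaptoneurosome input, with overlap. P2ry1 had 9, 6 and 0 counts in PAP TRAP, against 1, 0 and 0 in synaptoneurosome input, too few for a fold. The 11 astrocyte markers had a median change of 0.87 in this comparison, with 3 called higher. Of the neuron markers 2 of 10 were lower (20%), as were 2 of 9 microglia markers (22.2%), where 1.53% of all genes tested were. Their median changes were -0.36 and -1.81. Of 10 markers of myelinating oligodendrocytes 1 was higher and 1 lower.

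**Figure D2:**
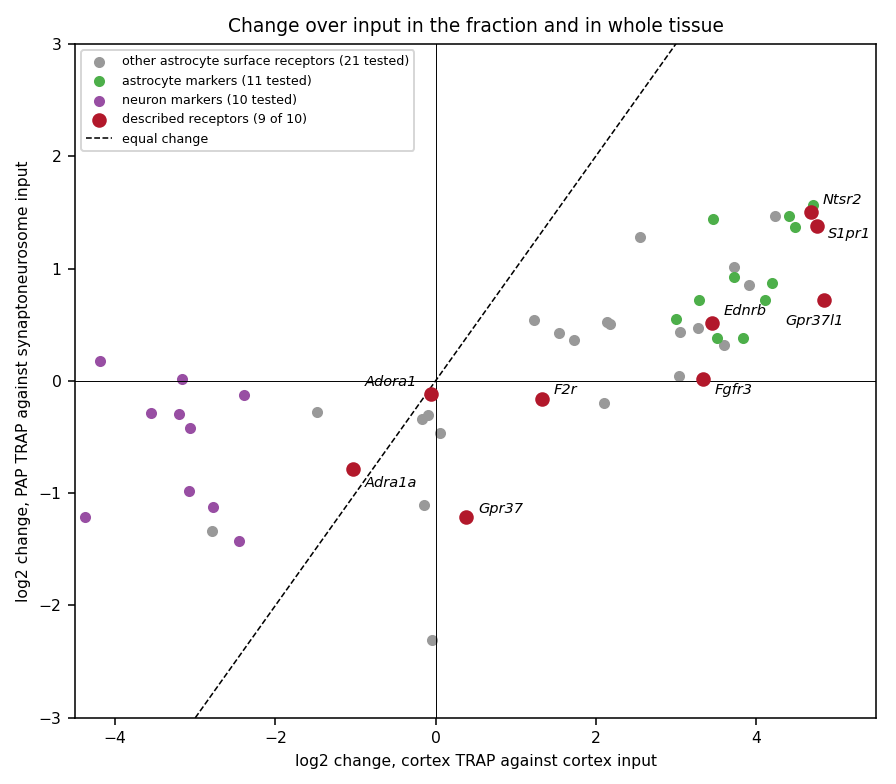
Log2 change of PAP TRAP against synaptoneurosome input (vertical axis) plotted over that of cortex TRAP against cortex input (horizontal axis), for 9 of the 10 receptors (red, P2ry1 left out), other astrocyte surface receptors (grey), astrocyte markers (green) and neuron markers (purple). The dashed line marks an equal change. Gpr37l1, S1pr1, Ntsr2, Ednrb and Fgfr3 lie far under the line, as the astrocyte markers do, with Gpr37l1 and S1pr1 to the right of all the markers and Fgfr3 below them, and Adora1 lies next to it.

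The change over input was smaller in the fraction than in the whole tissue for 5 of the 10 receptors, by the test of the difference itself, where 7.32% of all genes tested had a smaller and 12.9% a larger change (20.2% in all). The 978 genes with a smaller change were 627 without cortex input replicate 3. The difference on the log2 scale was -4.13 ± 0.48 for Gpr37l1 (adjusted p = 6.27e-06), -3.38 ± 0.47 for S1pr1 (4.15e-05), -3.31 ± 0.54 for Fgfr3 (0.000216), -3.19 ± 0.47 for Ntsr2 (8.27e-05) and -2.93 ± 0.46 for Ednrb (0.000148). All 5 calls held under every alternative tried. The median of the 10 was -2.26, against 0.03 over all genes. All 11 astrocyte markers had a smaller change as well, from -3.46 to -2.02 with a median of -3.12, so that S1pr1, Fgfr3, Ntsr2 and Ednrb lay within the range of the markers and Gpr37l1 beyond it. The difference was -0.05 for Adora1 (interval -0.82 to 0.71) and 0.25 for Adra1a (interval -0.80 to 1.29).

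**Figure D3:**
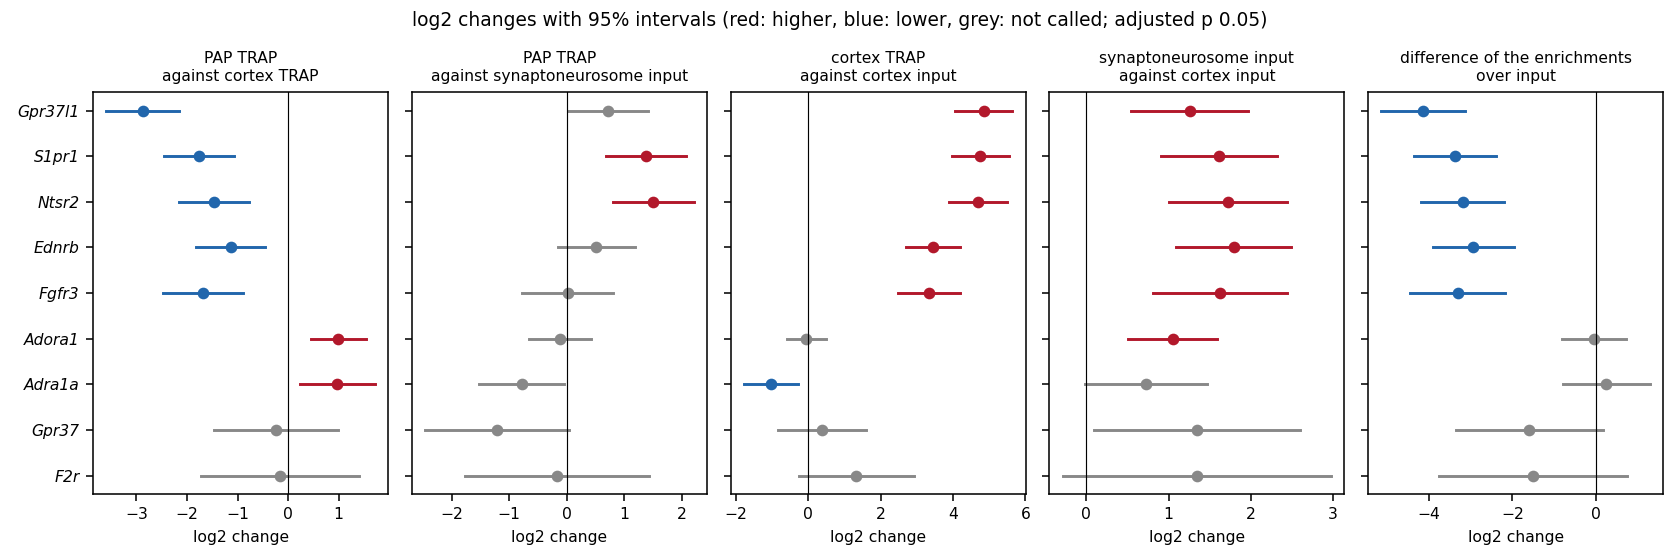
Log2 changes of 9 receptors (P2ry1 left out) in the 4 comparisons and in the difference of the changes over input, with 95% intervals. Red marks a call of higher, blue a call of lower and grey no call at an adjusted p of 0.05 (edgeR). Gpr37l1, S1pr1, Ntsr2, Ednrb and Fgfr3 fall together in the left and right panels, and Adora1 and Adra1a lie on the other side of 0 or near it.

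PAP TRAP against cortex TRAP sets the precipitate of the fraction against that of the whole tissue. It shares its libraries with the comparisons above. Gpr37l1, S1pr1, Fgfr3, Ntsr2 and Ednrb were lower in PAP TRAP and Adora1 and Adra1a were higher. That makes 2 of 10 higher and 5 lower, where 19.3% of all genes tested were called higher and 14.6% lower (33.9% in all). The count of all genes lower, 1949, was 1287 without PAP TRAP replicate 1, 1179, 1264 and 1277 without cortex TRAP replicates 1, 2 and 3, and 1285 in a fit of those 2 groups only. The median of the 10 was -1.30, against -0.28 over all genes.

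Gpr37l1 fell to 28.8, 52.6 and 30.4 CPM in PAP TRAP, against 360, 198 and 262 in cortex TRAP, and was 7.33-fold lower (-2.87 ± 0.34, adjusted p = 2.5e-06). S1pr1 was 3.40-fold lower (-1.77 ± 0.33, adjusted p = 0.000394), Fgfr3 3.22-fold (-1.69 ± 0.38, 0.00212), Ntsr2 2.76-fold (-1.46 ± 0.33, 0.00205) and Ednrb 2.20-fold (-1.14 ± 0.32, 0.0104). The libraries of the groups did not overlap in any of the 5, and 7 of the 10 receptors were without overlap here. The share of all genes tested without overlap was not counted, so this does not set the receptors apart. The call of Ednrb was lost without PAP TRAP replicate 1 (adjusted p = 0.0616) or cortex TRAP replicate 2 (0.0741). In the same comparison 8 of 11 astrocyte markers were lower (median -1.28, from -2.85 to 0.36), and the part of the summed marker level in the falls was not tested.

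Adora1 had 153, 125 and 97.1 CPM in PAP TRAP, against 79.8, 57.0 and 51.6 in cortex TRAP. Every PAP TRAP library was above every cortex TRAP library, and the level was 1.99-fold higher (0.99 ± 0.26, adjusted p = 0.00613, kept under every alternative). Adra1a had 21.1, 27.2 and 17.0 CPM in PAP TRAP, against 10.4, 9.87 and 13.03 in cortex TRAP, also without overlap, and rose by 0.97 ± 0.36 (adjusted p = 0.0414). That call did not survive a fit of those 2 groups only (0.0566), the absence of a filter on low counts (0.0958), or the loss of PAP TRAP replicate 1 (0.0739) or 2 (0.124) or cortex TRAP replicate 1 (0.0636) or 2 (0.0671). Of the neuron markers 9 of 10 were higher in PAP TRAP (median 2.28), as were 6 of 9 microglia markers, 7 of 10 markers of myelinating oligodendrocytes and 4 of 5 endothelial markers tested. Of 6 mural and fibroblast markers tested 5 were higher and 1 lower, and of 6 oligodendrocyte precursor markers 3 were higher and 1 lower. Of 3 ependymal and choroid plexus markers tested 1 was lower and 0 higher (0 as well at an unadjusted p under 0.05). The part of these other cells in the rise of Adora1 and Adra1a was not tested. F2r (-0.16, interval -1.72 to 1.41) and Gpr37 (-0.24, interval -1.47 to 0.98) were not called.

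Against the astrocyte markers of the same library, the receptors that fell did not all do so alike. The level of Gpr37l1 minus the mean log2 level of the 11 markers was -3.34 ± 0.13 in PAP TRAP and -1.68 ± 0.41 in cortex TRAP (SD, n = 3), with no overlap. S1pr1 was at -1.37 ± 0.27 in PAP TRAP and -0.78 ± 0.25 in cortex TRAP, and Ntsr2 at -1.97 ± 0.10 and -1.68 ± 0.12, in each case with a narrow gap between the groups. Ednrb was at -2.58 ± 0.32 in PAP TRAP and -2.60 ± 0.28 in cortex TRAP, and Fgfr3 at -3.59 ± 0.38 and -3.16 ± 0.38, with overlapping ranges. Adora1 moved the other way, at -1.56 ± 0.67 in PAP TRAP and -3.79 ± 0.37 in cortex TRAP, as did Adra1a, at -4.08 ± 0.36 and -6.26 ± 0.13. Both were higher still against the markers before precipitation. Adora1 was at -0.52 ± 0.15 in synaptoneurosome input and 0.19 ± 0.10 in cortex input, and Adra1a at -2.40 ± 0.63 and -1.38 ± 0.39. These differences are descriptions and carry no test.

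**Figure D4:**
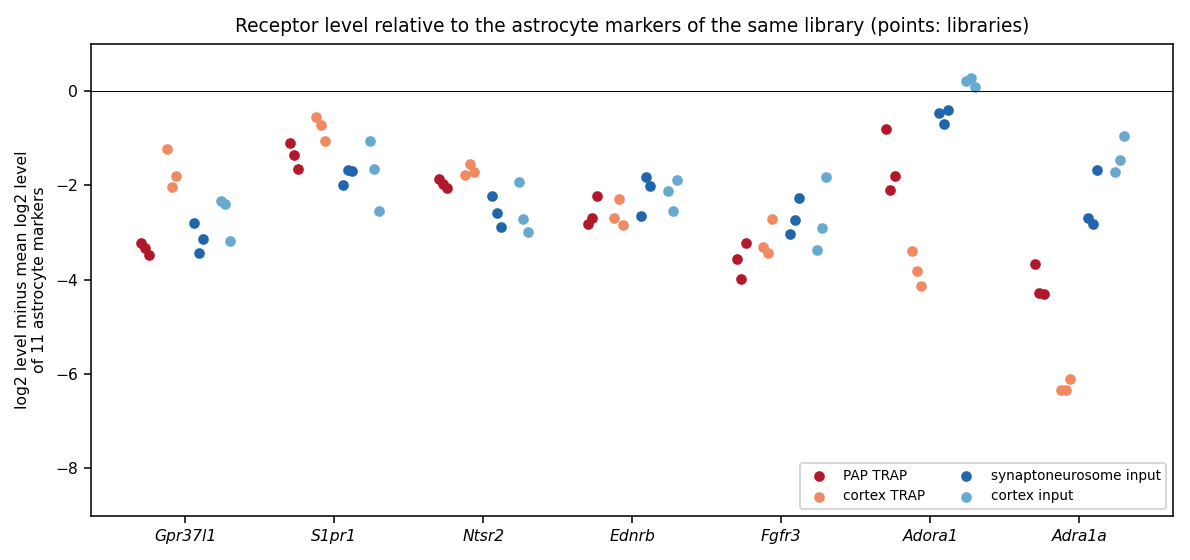
Log2 level of 7 receptors minus the mean log2 level of 11 astrocyte markers in the same library (vertical axis), with 1 point per library and colours for the 4 groups. Gpr37l1 sits lower in PAP TRAP than in cortex TRAP, and Ednrb sits at about the same height in both. Adora1 and Adra1a sit higher in PAP TRAP than in cortex TRAP and higher still in both inputs.

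Synaptoneurosome input against cortex input compares the fraction with the tissue before any precipitation. Ednrb, Ntsr2, Fgfr3, S1pr1, Gpr37l1 and Adora1 were higher in the fraction, and 0 of the 10 were lower by edgeR, by DESeq2 and at an unadjusted p under 0.05, where 7.26% of all genes tested were called higher and 2.07% lower (9.32% in all). Ednrb was 3.47-fold higher (1.79 ± 0.33, adjusted p = 0.00165), Ntsr2 3.30-fold (1.72 ± 0.34, 0.00288) and S1pr1 3.06-fold (1.61 ± 0.34, 0.00414). The 3 calls held under every alternative. Fgfr3 was 3.09-fold higher (1.63 ± 0.39, adjusted p = 0.0115), a call lost without cortex input replicate 1 (0.087) or 2 (0.0773). Gpr37l1 was 2.39-fold higher (1.26 ± 0.34, 0.0245) and Adora1 2.07-fold (1.05 ± 0.26, 0.015), and both calls were lost without synaptoneurosome input replicate 1 (0.122 and 0.0614) and without each cortex input replicate in turn (0.058 to 0.144 and 0.0657 to 0.081). For all 6 genes every library of the fraction was above every cortex input library. The inputs were without overlap for all 10 receptors, called or not, so this does not set the 6 apart. The share over all genes tested was not counted here either.

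In the same inputs Gpr37 had a change of 1.35 ± 0.60 (adjusted p = 0.172), Adra1a of 0.72 ± 0.35 (0.215) and F2r of 1.34 ± 0.78 (0.302), without overlap and without a call. Of the 11 astrocyte markers 9 were higher (median 1.78). P2ry1 had 1, 0 and 0 counts in synaptoneurosome input, against 9, 22 and 15 in cortex input.

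Among 27 receptors of the same families, 19 were tested. In PAP TRAP 9 were higher than in cortex TRAP and 2 lower, or 47.4% and 10.5%, where 19.3% and 14.6% of all genes tested were (median log2 change 1.73, against -0.28 over all genes). F2rl2, a thrombin receptor subtype, had 10, 42 and 15 counts in PAP TRAP, against 0 in each cortex TRAP library. Adra1d, the alpha-1D receptor, had 43, 51 and 199 counts in PAP TRAP, against 0, 3 and 0 in cortex TRAP. Ntsr1, the high-affinity neurotensin receptor found mainly on neurons, had 119, 104 and 137 counts in PAP TRAP, against 0, 1 and 8 in cortex TRAP. These 3 were thus nearly or wholly missing from cortex TRAP, so no fold is given, while each was called higher in PAP TRAP (adjusted p = 0.00158, 0.000584 and 0.000195). Ntsr1 and Ntsr2 therefore changed in opposite directions between the precipitates.

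Fgfr2 and Fgfr1, the other FGF receptors of glia, were lower in PAP TRAP. Fgfr2 had 19.0, 55.7 and 35.3 CPM in PAP TRAP, against 72.7, 79.4 and 87.0 in cortex TRAP (-1.12 ± 0.33, adjusted p = 0.0144). Fgfr1 had 25.9, 26.9 and 41.7 CPM in PAP TRAP, against 60.7, 75.1 and 65.7 in cortex TRAP (-1.09 ± 0.37, adjusted p = 0.0273). Neither gene overlapped between the groups, but both calls hung on single libraries. That of Fgfr2 was lost without PAP TRAP replicate 1 (0.0733) or cortex TRAP replicate 2 (0.0579) or 3 (0.0819) and in a fit of those 2 groups only (0.0879). That of Fgfr1 was lost without PAP TRAP replicate 1 (0.104) or 2 (0.0794), without each cortex TRAP replicate in turn (0.0665 to 0.126) and without mitochondrial genes (0.0519).

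In cortex TRAP against cortex input, 4 of the 19 related receptors were higher and 8 lower, or 21.1% and 42.1%, where 15.9% and 19.5% of all genes tested were (median -1.31, against 0.05). Fgfrl1, an FGF receptor without a kinase, had 375, 251 and 208 counts in cortex TRAP, against 10, 5 and 6 in cortex input, and was 42.2-fold higher (5.40 ± 1.04, adjusted p = 0.0004). Ednra, the endothelin A receptor, had 294, 188 and 37 counts in cortex TRAP, against 9, 15 and 0 in cortex input (adjusted p = 0.00384). Fgfr1 was 7.03-fold higher (2.81 ± 0.39). The falls were led by F2rl2, with 0 counts in each cortex TRAP library, against 9, 13 and 16 in cortex input (adjusted p = 0.00413). Adra1d had 0, 3 and 0 counts in cortex TRAP, against 31, 52 and 23, and S1pr3, a Gq-coupled sphingosine 1-phosphate receptor, had 8, 1 and 1, against 137, 37 and 17. Adra2c (adjusted p = 0.0107) and Ntsr1 (0.0103) were also lower, and these 2 were named after their values were seen. The genes named in the remaining comparisons of each list were chosen after their values were seen. In PAP TRAP against synaptoneurosome input 0 of the 19 were higher (0 as well by DESeq2 and at an unadjusted p under 0.05) and 1 was lower, P2ry13, an ADP receptor of microglia (-2.73 ± 0.71, adjusted p = 0.0335). Of all genes tested 3% were higher and 1.53% lower in that comparison. In synaptoneurosome input against cortex input 4 were higher, and 0 lower by the same 3 counts. All genes tested were called higher in 7.26% and lower in 2.07% there. The 4 were P2ry12, the other ADP receptor of microglia (2.61 ± 0.48), Fgfr1 (1.32 ± 0.38), Sort1, a sorting receptor that binds neurotensin (1.19 ± 0.27), and Fgfr2 (1.11 ± 0.34).

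Of 30 genes that make, carry or remove the ligands, 24 were tested. Between PAP TRAP and cortex TRAP 4 were higher and 3 lower, or 16.7% and 12.5%, near the 19.3% and 14.6% of all genes tested (median -0.04, against -0.28). Spns2, which exports sphingosine 1-phosphate, had 230, 261 and 385 counts in PAP TRAP, against 11, 4 and 43 in cortex TRAP, and was 19.8-fold higher (4.31 ± 0.70, adjusted p = 8.63e-05). Psap, which encodes prosaposin, a reported ligand of Gpr37 and Gpr37l1, had 307, 229 and 296 CPM in PAP TRAP, against 108, 108 and 95.4 in cortex TRAP (1.42 ± 0.25, adjusted p = 0.000233). Psap and Gpr37l1 thus changed in opposite directions between the precipitates. Psap was also higher in synaptoneurosome input than in cortex input (2.08 ± 0.26, adjusted p = 3.75e-05) and was not called in cortex TRAP against cortex input (0.46 ± 0.25, 0.164), and these last comparisons were added after its values were seen. Ece1, which cleaves endothelin precursors, had 57.8, 63.3 and 88.0 CPM in PAP TRAP, against 22.4, 25.3 and 39.6 in cortex TRAP (1.26 ± 0.34, adjusted p = 0.00728).

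Adk, Maob and Fgf1 were lower in PAP TRAP. Adk, the adenosine kinase that clears adenosine, had 9.39, 35.7 and 13.99 CPM in PAP TRAP, against 54.7, 71.3 and 90.2 in cortex TRAP (-1.87 ± 0.46, adjusted p = 0.00399). Adk therefore fell where the adenosine receptor Adora1 rose. Maob, a monoamine oxidase of astrocytes, had 16.0, 32.5 and 38.6 CPM in PAP TRAP, against 114, 76.4 and 81.9 in cortex TRAP (-1.64 ± 0.44, adjusted p = 0.00689). Fgf1, an FGF that binds all FGF receptors, had 175, 385 and 251 CPM in PAP TRAP, against 597, 543 and 449 in cortex TRAP (-0.97 ± 0.27, adjusted p = 0.0106). The call of Fgf1 was lost in a fit of those 2 groups only (0.0858) and without PAP TRAP replicate 1 (0.062) or cortex TRAP replicate 1 (0.0682) or 2 (0.0559).

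In cortex TRAP against cortex input, 6 of the 24 were higher and 3 lower, or 25% and 12.5%, where 15.9% and 19.5% of all genes tested were. Fgf1 was 17.4-fold higher (4.12 ± 0.31, adjusted p = 1.06e-08) and Maob 14.4-fold higher (3.85 ± 0.48). Fgf2 had 93, 17 and 35 counts in cortex TRAP, against 2 in each cortex input library (adjusted p = 0.0101), with the call lost without cortex TRAP replicate 1 (0.0672) or any 1 of the cortex input replicates (0.0501 to 0.0609). Spns2 was lower (-3.72 ± 0.68), as was Fgf12, an intracellular member of the FGF family that binds sodium channels, with 24.8, 32.3 and 29.2 CPM in cortex TRAP, against 103, 100.2 and 105 in cortex input (-1.84 ± 0.28). Fgf9 was lower by the test (-1.93 ± 0.66, 0.0286), a call lost with GC-corrected offsets (0.0594) and without cortex TRAP replicate 1 (0.0623) or 3 (0.0721) or cortex input replicate 2 (0.106). In PAP TRAP against synaptoneurosome input 1 of the 24 was higher, Maob (1.79 ± 0.46, adjusted p = 0.0333), and 0 lower by edgeR, with 3 lower by DESeq2 and 4 at an unadjusted p under 0.05. The 4.17% higher is near the 3% of all genes tested, of which 1.53% were lower. In synaptoneurosome input against cortex input 5 were higher and 1 lower, or 20.8% and 4.17%, where 7.26% and 2.07% of all genes tested were. Beside Psap and Ece1 (1.26 ± 0.34), these were Serpine2, an inhibitor of thrombin (2.21 ± 0.29), Fgf1 (2.20 ± 0.29) and Sgpp1, a phosphatase of sphingosine 1-phosphate (1.47 ± 0.35), and the lower gene was Fgf12 (-1.02 ± 0.28). The change over input was smaller in the fraction for Fgf1, Adk, Serpine2, Maob and Sgpp1 (-3.16 to -1.42) and larger for Spns2 (4.19 ± 0.90). That is 20.8% and 4.17% of the 24, where 7.32% and 12.9% of all genes tested had a smaller and a larger change.

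Downstream of the receptors, 30 genes of G protein and FGF receptor signalling were tested. Between PAP TRAP and cortex TRAP 9 were higher and 11 lower, or 30% and 36.7%, where 19.3% and 14.6% of all genes tested were (median -0.42, against -0.28). Itpr1, the main inositol trisphosphate receptor of neurons, had 416, 253 and 276 CPM in PAP TRAP, against 9.63, 8.71 and 11.2 in cortex TRAP, 31.97-fold higher (4.998 ± 0.28, adjusted p = 2.84e-10). Grk2, a kinase that desensitizes G protein-coupled receptors, had 72.4, 65.6 and 56.5 CPM in PAP TRAP, against 8.61, 24.2 and 6.99 in cortex TRAP (2.29 ± 0.40). Rgs4, which speeds the shutdown of Gq and Gi, had 92.1, 54.7 and 141 CPM in PAP TRAP, against 24.2, 17.8 and 45.3 in cortex TRAP (1.72 ± 0.39). Itpr1 and Rgs4 were lower in cortex TRAP than in cortex input, by 3.61 ± 0.27 and 3.38 ± 0.42 on the log2 scale, as was Gnai1, a Gi subunit (-2.85 ± 0.29). Rgs20, which acts on Gi-type subunits, went the other way: it was 4.90-fold lower in PAP TRAP, with 32.9, 101 and 45.9 CPM, than in cortex TRAP, with 297, 310 and 276 (-2.29 ± 0.37, adjusted p = 7.87e-05), and 9.43-fold higher in cortex TRAP than in cortex input. In cortex TRAP against cortex input 13 of the 30 were higher and 5 lower, or 43.3% and 16.7% against 15.9% and 19.5% of all genes, with Etv4, Plcb3 and Rgs20 at the head. Plcb3, a phospholipase C that Gq activates, had 18.6, 12.4 and 13.8 CPM in cortex TRAP, against 0.886, 1.46 and 1.65 in cortex input (3.48 ± 0.63). Arrb1, a beta-arrestin (1.38 ± 0.31), and the G protein subunits Gna13 (1.18 ± 0.28) and Gna11 (1.09 ± 0.30) were higher in PAP TRAP than in synaptoneurosome input, and Sos1, an activator of Ras, was lower (-1.14 ± 0.28). That is 10% of the 30 higher and 3.33% lower, where 3% and 1.53% of all genes tested were. In synaptoneurosome input against cortex input Itpr2, the inositol trisphosphate receptor of astrocytes (2.25 ± 0.46), and Itpr1 (0.98 ± 0.24) were higher and Spry4 was lower (-2.36 ± 0.60). These 6.67% and 3.33% of the list are near the 7.26% and 2.07% of all genes tested.

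Within the same list Spry4, a Sprouty inhibitor of FGF receptor signalling, had 2.11, 2.23 and 6.22 CPM in PAP TRAP, against 12.9, 37.2 and 35.1 in cortex TRAP, 8.03-fold lower (-3.004 ± 0.57, adjusted p = 0.000472). Etv4, an Ets-family transcription factor, had 6, 17 and 0 counts in PAP TRAP, against 315, 52 and 178 in cortex TRAP (adjusted p = 0.0122, and 0.0743 without cortex TRAP replicate 1). Spry2, Etv5, Dusp6, Spred1 and Spry1 were looked up after these values were seen. Spry2 (-1.99 ± 0.39, adjusted p = 0.000676) and Etv5 (-1.37 ± 0.31, 0.00225) were lower under every alternative. Dusp6, an ERK phosphatase (-1.69 ± 0.44, 0.00623), and Spred1, an inhibitor of Ras signalling (-0.80 ± 0.23, 0.0104), were lower with calls that ended without cortex TRAP replicate 3 (0.0572 and 0.0655), and that of Spred1 also without cortex TRAP replicate 2 (0.0759) and in a fit of those 2 groups only (0.0971). Spry1 had 10, 6 and 9 counts in PAP TRAP, against 59, 39 and 23 in cortex TRAP, and was not called (0.132). Etv4 was called higher in cortex TRAP than in cortex input (adjusted p = 0.0137), a call lost without cortex TRAP replicate 1 (0.0847) or any 1 of the cortex input replicates (0.0502 to 0.067).

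**Figure D5:**
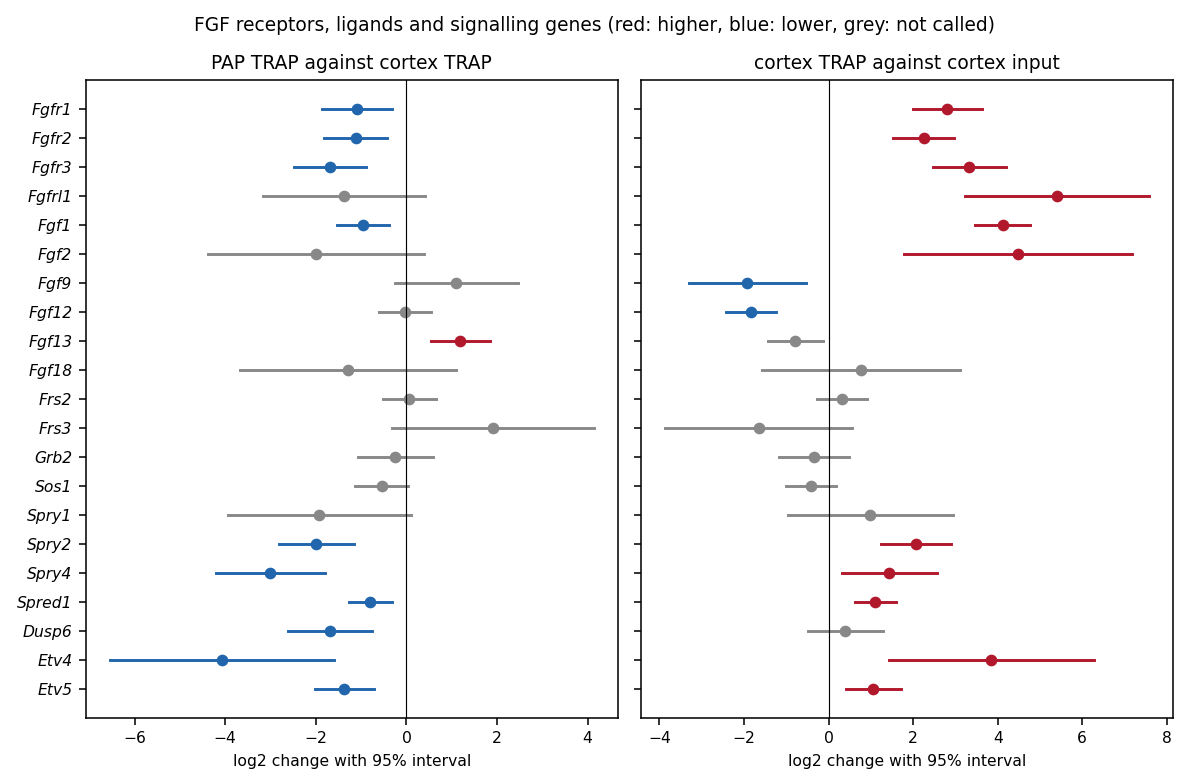
Log2 changes with 95% intervals of the tested FGF receptors, FGF genes and FGF signalling genes of the lists, in PAP TRAP against cortex TRAP (left) and cortex TRAP against cortex input (right). Red marks a call of higher, blue of lower and grey no call. Fgfr1, Fgfr2, Fgfr3, Fgf1, Spry2, Spry4, Spred1, Etv4 and Etv5 are blue on the left and red on the right, and the panels share the cortex TRAP libraries.

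Among 21 other surface receptors of astrocytes, all were tested, and 4 were higher and 4 lower in PAP TRAP than in cortex TRAP, 19% each way, near the 19.3% and 14.6% of all genes tested (median -0.05, against -0.28). Lpar1, a receptor for lysophosphatidic acid that oligodendrocytes also carry, had 37.7, 32.8 and 26.3 CPM in PAP TRAP, against 2.89, 7.13 and 1.73 in cortex TRAP (3.05 ± 0.58). Grm5, a Gq-coupled glutamate receptor, had 118, 73.3 and 56.9 CPM in PAP TRAP, against 5.66, 8.62 and 15.7 in cortex TRAP (3.05 ± 0.36), and Gabbr2, a subunit of the GABA B receptor, was higher by 1.31 ± 0.23. Smo, which relays Hedgehog signals, was lower (-2.17 ± 0.57, adjusted p = 0.00632, and 0.0557 without cortex TRAP replicate 2), as was Cntfr, the receptor for ciliary neurotrophic factor (-1.501 ± 0.29). Gprc5b, an orphan receptor, was at the edge (-0.88 ± 0.33, adjusted p = 0.0488), and its call was lost in 10 of 14 alternatives (0.0612 to 0.182), among them the loss of PAP TRAP replicate 1 or 3 or of any 1 of the cortex TRAP replicates. Against cortex input, 14 of the 21 were higher in cortex TRAP and 2 lower, or 66.7% and 9.52% where 15.9% and 19.5% of all genes were, with Fzd2, a Wnt receptor (4.24 ± 1.14), Smo (3.92 ± 0.62) and Cntfr (3.72 ± 0.32) at the head. Grm5 was lower (-2.79 ± 0.36), and Lpar1 as well (-1.48 ± 0.55, adjusted p = 0.0436), a call lost without cortex TRAP replicate 1 or 3 or cortex input replicate 1 or 2 (0.082 to 0.124), with GC-corrected offsets (0.0589) and in a fit of those 2 groups only (0.0783). Of the 21, 1 was lower in PAP TRAP than in synaptoneurosome input, Grm5 (-1.33 ± 0.34, adjusted p = 0.0298), and 0 were higher by edgeR, with 2 by DESeq2 and 3 at an unadjusted p under 0.05. Of all genes tested 1.53% were lower and 3% higher in that comparison. In synaptoneurosome input against cortex input 14 were higher, and 0 lower by edgeR, by DESeq2 and at an unadjusted p under 0.05. All genes tested were called higher in 7.26% and lower in 2.07% there, against 66.7% of the 21 higher. The change over input was smaller in the fraction for 9 of the 21 and larger for 1, or 42.9% and 4.76%, where 7.32% and 12.9% of all genes tested were.

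Across the 12 libraries the log2 levels of Ntsr2 and S1pr1 ran closest together of all pairs of the 10 receptors (Pearson's r = 0.987, a description, since the libraries form 4 groups and share their group levels). Over 5952 genes searched, the gene most like Ntsr2 and S1pr1 was Csrp1 in each case (r = 0.99 and 0.985), followed by Acot11 and Gfap for Ntsr2 and by Car2 and Aldoc for S1pr1. Gpr37l1 was most like Tril, Cmtm5 and Rorb (r = 0.982, 0.979 and 0.979). Ednrb was most like Bcan, Mmd2 and Tspan12 (0.986, 0.984 and 0.98) and Fgfr3 like Slc1a4, Usp53 and Cd81 (0.968, 0.961 and 0.956). The nearest genes of Adora1 were Kif5b, Tex2 and Tmem131 (0.938, 0.926 and 0.924) and those of Adra1a were Dnajb14, Slitrk5 and Serinc5 (0.95, 0.948 and 0.944). Likeness was weaker for F2r, led by Zmpste24 (0.916), for P2ry1, led by Slmap (0.898), and for Gpr37, led by Cd99l2 (0.884).

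Exons of 3 of the 10 genes overlap a gene on the other strand in GENCODE M21 (GRCm38), and the strand setting of the counts is not given in the sources used here. Adora1 (chr1:134199223-134235431) shares 1162 exon bases with Mybph, Fgfr3 (chr5:33721674-33737068) shares 998 with G630022F23Rik, and P2ry1 (chr3:61002795-61008982) shares 992 with Gm37035. Without the strand setting, how reads from these stretches were counted cannot be said. Gpr37l1 (chr1:135160234-135167681), Ntsr2 (chr12:16653382-16660227), Ednrb (chr14:103814625-103844402), S1pr1 (chr3:115710433-115715072), Adra1a (chr14:66635251-66771168), F2r (chr13:95601803-95618487) and Gpr37 (chr6:25665878-25690729) share no exon bases with another gene there.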

How the data were processed

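The deposited files hold raw counts, whole numbers per Ensembl gene ID, followed by the summary lines that HTSeq writes. Per the submitters' processing notes the tools were Trimmomatic 0.32, Bowtie2, STAR and HTSeq, without roles. For genome build, annotation and strandedness, no statement is made, as they were not given in the sources used here. Per the labels, cDNA was made from 2 ng of RNA by SPIA amplification, with no molecular identifiers mentioned, so a count is not a count of independent molecules. The errors given are SDs and standard errors over libraries. Groups came from sample titles and source names. No library pair differed by as little as sampling noise.

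GENCODE M21 (GRCm38) named 40254 of 41388 IDs. Lines that name no gene, 20.3% to 55.5% of counts, were left out of library sizes and tests. A single fit over the 12 libraries, with a mean for each group, used edgeR's quasi-likelihood test (edgeR 4.0.16, limma 3.58.1, R 4.3.3), TMM scaling and filterByExpr (minimum count 10, minimum total 15). P-values were adjusted by the Benjamini-Hochberg method across all 13364 genes that passed, with calls at 0.05. Changes are log2 values ± SE with 95% intervals. Overlap of libraries between groups is a description, and its share over all genes tested was not counted. The difference of the changes over input is an interaction contrast of that fit. Levels are TMM-normalized CPM, given per kilobase of exon where genes are compared. The TMM factors were far apart between groups. They were 1.069 to 1.222 in PAP TRAP, 2.252 to 2.458 in cortex TRAP, 0.1908 to 0.3394 in synaptoneurosome input and 1.346 to 1.589 in cortex input. Levels against markers took a pseudocount of 0.1, and correlations used log2(CPM + 1) for genes whose mean log2 CPM reached 3. The test of PAP TRAP against cortex TRAP was also run on simulated counts that gave every gene the same dispersion. Genes in these data differ in spread, so that run is no check on the calls reported.

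The tests were repeated with RLE scaling, without the filter, with DESeq2 1.42.0, with only the 2 groups compared, with the replicate number as a block, without mitochondrial genes, with offsets corrected for GC content (loess span 0.3), with that correction and the block, and without each library in turn. The receptors and gene lists were chosen with earlier results of these data known. Genes are named from each list by a rule, up to 3 called genes with the largest rise and up to 3 with the largest fall in PAP TRAP against cortex TRAP and in cortex TRAP against cortex input. Exceptions are said to be chosen after their values were seen.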

Additional observations from a re-analysis of the deposited data

Results flagged for a closer look

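The change over input differed between the fraction and the whole tissue for 5 receptors, by the interaction test of the edgeR fit. In each, the change of PAP TRAP over synaptoneurosome input was smaller than that of cortex TRAP over cortex input. The difference on the log2 scale was -4.13 for Gpr37l1 (0.72 in the fraction, 4.85 in the whole tissue), -3.38 for S1pr1 (1.38 and 4.76), -3.31 for Fgfr3 (0.02 and 3.33), -3.19 for Ntsr2 (1.51 and 4.69) and -2.93 for Ednrb (0.52 and 3.45). All 11 astrocyte markers had a smaller change in the fraction as well, with differences from -3.46 to -2.02, and summed to 4.06% to 4.93% of nuclear counts in synaptoneurosome input, against 0.812% to 0.895% in cortex input. The part of this gap between the inputs in the differences was not tested.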

How the results depend on the processing

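The receptors called lower in PAP TRAP than in cortex TRAP numbered 4 or 5 with each library left out in turn, and those called higher 1 or 2. The higher count was 1 without the filter on low counts and 1 with only the 2 groups compared. In PAP TRAP against synaptoneurosome input, DESeq2 called 1253 genes, against 605 in edgeR, and 54.7% of its calls were higher. Leaving out a library gave 292 to 521 genes and 0 to 2 receptors higher. In cortex TRAP against cortex input, the count of receptors lower was 0 without the filter and 0 to 1 with a library left out. In synaptoneurosome input against cortex input, DESeq2 called 2035 genes and the fit of those 2 groups 2251, against 1246. A library left out gave 608 to 1025 genes and 3 to 6 receptors higher there, and Gpr37 was called in the fit of those 2 groups (1.43, adjusted p = 0.0468). Over all alternatives, 0 to 3 related receptors (2 in the values reported) and 1 to 5 other astrocyte receptors (4) were lower in PAP TRAP than in cortex TRAP, 7 to 14 signalling genes (13) were higher and 2 to 5 ligand genes (3) lower in cortex TRAP than in cortex input, and 1 to 6 related receptors (4) and 3 to 6 ligand genes (5) were higher in synaptoneurosome input than in cortex input. In PAP TRAP against synaptoneurosome input, 0 to 5 signalling genes (3) and 0 to 3 ligand genes (1) were higher. The cause of these shifts was not tested.

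Reversals touched only changes that were not called. F2r in PAP TRAP against cortex TRAP was 0.015 with only those groups, and -0.57 to 0.0828 with a library left out. With a library left out, the change in the same comparison was -0.85 to 0.19 for Gpr37 and -2.60 to 3.42 for P2ry1. In PAP TRAP against synaptoneurosome input, Fgfr3 was -0.036 with RLE scaling and with DESeq2, -7e-04 with the replicate block, -0.21 with GC-corrected offsets, -0.24 with both, and -0.10 to 0.21 with a library left out. Adora1 there was 0.0138 without mitochondrial genes and -0.28 to 0.0442 with a library left out, and F2r -0.58 to 0.0755. In cortex TRAP against cortex input, P2ry1 was -1.76 with the replicate block, -1.62 with block and GC correction and -4.58 to 1.12 with a library left out, and Gpr37 was -0.0635 to 0.56. For Adora1 the difference of the changes over input was 8e-04 without the filter, 0.0571 without mitochondrial genes, 0.0331 with GC-corrected offsets, 0.0461 with that and the block, and -0.21 to 0.29 with a library left out.

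Replicate numbers were not treated as pairing in the values reported, since the labels do not say that they pair libraries. The deviations of all 18 same-numbered pairs correlated weakly but positively (0.00575 to 0.0804), and 11 of 12 libraries matched their own number best. Pairing by number is therefore possible, and the fit with the replicate block allows for it. With the replicate block in the fit, no count of called receptors changed, and the genes called numbered 4564 in PAP TRAP against cortex TRAP and 653 in PAP TRAP against synaptoneurosome input. Leaving out mitochondrial genes moved the median gene up by 0.13 in both comparisons of PAP TRAP. Depth limits P2ry1, F2r and Gpr37 most, and all of synaptoneurosome input.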
